A study of Mus musculus with 24 samples.

Results

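Acute morphine was compared with vehicle in the ventral tegmental area (VTA) of mice without a functional vitamin D receptor gene (Vdr-/-). The comparison was taken from the sample labels and held 6 of the 24 RNA-seq libraries of the study, with 3 morphine mice, numbered 2.0, 2.1 and 2.2, and 3 PBS mice, numbered 7, 8 and 9. All 6 mice carried the same homozygous Vdr deletion on a C57BL/6 background and, per the study's methods, were raised on a calcium- and lactose-rich diet that keeps bone mineralized without the receptor. The morphine mice received an intraperitoneal dose of morphine sulfate, 5 mg/kg, and the PBS mice received PBS. An interval of 90 min from injection to collection is stated for accumbens RNA-seq in both injection groups. The methods for accumbens and VTA punches, given under PCR and western blots, state 60 min for vehicle-injected control mice. For morphine mice they give several times. Neither statement is tied to the VTA RNA-seq libraries, so that a difference in collection time cannot be told apart from the injection. Brains were frozen, and the VTA was sampled as bilateral punches of 1.5 mm from coronal sections, so that each library holds the mixed RNA of neurons, glia and vessels of the VTA and of whatever tissue borders the punch. The deletion is present in every cell from conception, and the labels give neither age nor sex. Wild-type VTA and Vdr-/- nucleus accumbens libraries of the same study, 6 in each comparison, were used only to test whether the response differed by genotype or by region.

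The VTA holds the dopamine neurons that project to the nucleus accumbens, together with GABA neurons that restrain them and a smaller number of glutamate neurons. Morphine acts on the mu-opioid receptor, a Gi-coupled receptor that in the VTA sits mainly on GABA neurons. Its activation lowers their firing, which releases dopamine neurons from inhibition. Activity-regulated transcription factors of the Fos and Nr4a families rise within minutes to hours after neurons fire, and their targets include secreted factors such as Bdnf. Morphine also engages the hypothalamic-pituitary-adrenal axis and body temperature, so that glucocorticoid-induced and temperature-sensitive transcripts can be read in the same tissue.

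Between 12421680 and 30184426 reads fell on genes in the 6 libraries, with 14695928 to 17621325 in the morphine group. PBS mouse 8 had the fewest and PBS mouse 9 the most. Dopamine neuron markers were present in every library, with Th, which encodes the rate-limiting enzyme of dopamine synthesis, between 1028 and 5649 normalized reads. The deleted gene itself could not serve as a check of the labels. Vdr had 4.20 to 14.2 normalized reads per library, wild-type VTA libraries were as low (1.70 to 15.9), and gene-level reads do not tell deleted exons from kept ones. In the labels, the descriptions of 12 of 12 PBS libraries of the study begin with a name that 0 of 12 morphine libraries carry, and each of the 3 Vdr-/- VTA PBS libraries shares its sequencing index with a morphine library. The labels do not say what that name marks, and injection and whatever it marks cannot be told apart in any comparison below. Levels are given as normalized reads, that is, reads recovered from the deposited values and divided by size factors of the 6 libraries, and fold changes are on the log2(normalized reads + 1) scale.

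After morphine, 579 genes were higher and 663 lower at an adjusted p under 0.05 among 16194 tested (limma, Benjamini-Hochberg), which is 7.67% of the genes tested, 3.58% upward and 4.09% downward. Counts of called list members below are to be read beside these shares. The median absolute change of the called genes was 0.40 on the log2 scale, and the smallest adjusted p was 0.0116. At an unadjusted p under 0.05, 4616 genes passed, or 28.5%. The morphine and PBS groups did not overlap in 5543 genes, or 34.2% (16.6% higher and 17.6% lower after morphine), which included all 1242 called genes. A lack of overlap in a called gene below therefore describes its values and adds nothing to the call. The number called depended on which mice entered the fit. Leaving out morphine mouse 2.1 or PBS mouse 7 gave 0 calls with limma (3395 and 3379 genes at an unadjusted p under 0.05). It was 139 when morphine mouse 2.2 was left out, 524 for mouse 2.0, 593 for PBS mouse 9 and 1639 for PBS mouse 8. Every list count below was therefore 0 without morphine mouse 2.1 or PBS mouse 7. The direction of 1237 of the 1242 genes was the same with each library left out in turn. Since the groups of all 1242 did not overlap, that outcome was nearly fixed in advance and adds nothing to the calls. DESeq2 called 1373 genes and edgeR 1350 on the same recovered reads, sharing 1018 and 1223 with limma's calls.

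**Figure D1:**
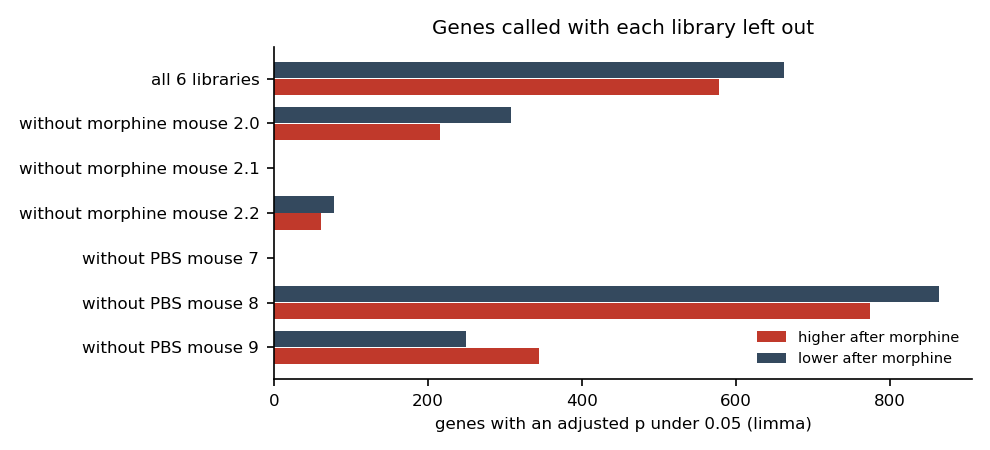
Number of genes with an adjusted p under 0.05 (x axis, limma) in the fit of all 6 Vdr-/- VTA libraries and with each library left out (y axis), in red for genes higher and in dark blue for genes lower after morphine. The bars are empty without morphine mouse 2.1 and without PBS mouse 7, and longest without PBS mouse 8.

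Activity-regulated transcription factors rose in part. Of 26 tested, 3 rose and 0 fell, with a median log2 change of 0.29 against 0.00 over all genes. Fos, a subunit of the AP-1 factor and the usual marker of recent neuronal firing, had 431, 319 and 314 normalized reads after morphine and 202, 147 and 236 after PBS, a log2 change of 0.87 ± 0.19 (SE, n = 3 per group, limma adjusted p = 0.0373). All 3 morphine libraries lay above all 3 PBS libraries. Fosb, the family member whose stable product accumulates with repeated drug exposure, had 149, 178 and 146 against 65.9, 53.2 and 87.4 (log2 change 1.21 ± 0.19, limma adjusted p = 0.0165). Npas4, an activity-dependent factor that shapes inhibitory synapses, had 225, 199.9 and 198 against 138, 106 and 159.9 (0.64 ± 0.15, limma adjusted p = 0.0477). For Nr4a3, an orphan nuclear receptor, the groups overlapped: 275, 589 and 341 against 77.5, 457 and 107, where PBS mouse 8 reached the range of the morphine libraries (1.28 ± 0.61, limma adjusted p = 0.217). The count was 0 with morphine mouse 2.2 left out as well, 2 with mouse 2.0, 3 with PBS mouse 9 and 7 with PBS mouse 8.

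Of 32 activity-regulated effectors, the secreted and synaptic products that act downstream of such factors, 6 rose and 1 fell, with a median of 0.20. Inhba, which encodes the activin A subunit, had 129, 132 and 164 normalized reads after morphine and 61.0, 75.5 and 62.2 after PBS (1.08 ± 0.15, limma adjusted p = 0.0139). Bdnf, a neurotrophin that regulates synaptic strength in the VTA, had 415, 438 and 498 against 265, 299 and 260.4 (0.71 ± 0.09, limma adjusted p = 0.0134). Neither gene's groups came close to overlapping. Pcsk1, a prohormone convertase, rose by 0.52, Scg2, a granin of dense-core vesicles, by 0.36, Sorcs3, a sorting receptor, by 0.33 and Rgs2, a GTPase-activating protein for G alpha subunits, by 0.21. Plk3, a stress-responsive polo-like kinase, fell by 0.40. Trh, which encodes thyrotropin-releasing hormone and had the largest change of the list, missed the threshold at 1.92 ± 0.73 (limma adjusted p = 0.137). Of the list, 1 gene rose with morphine mouse 2.2 left out, 3 with mouse 2.0, 5 with PBS mouse 9 and 7 with PBS mouse 8.

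**Figure D2:**
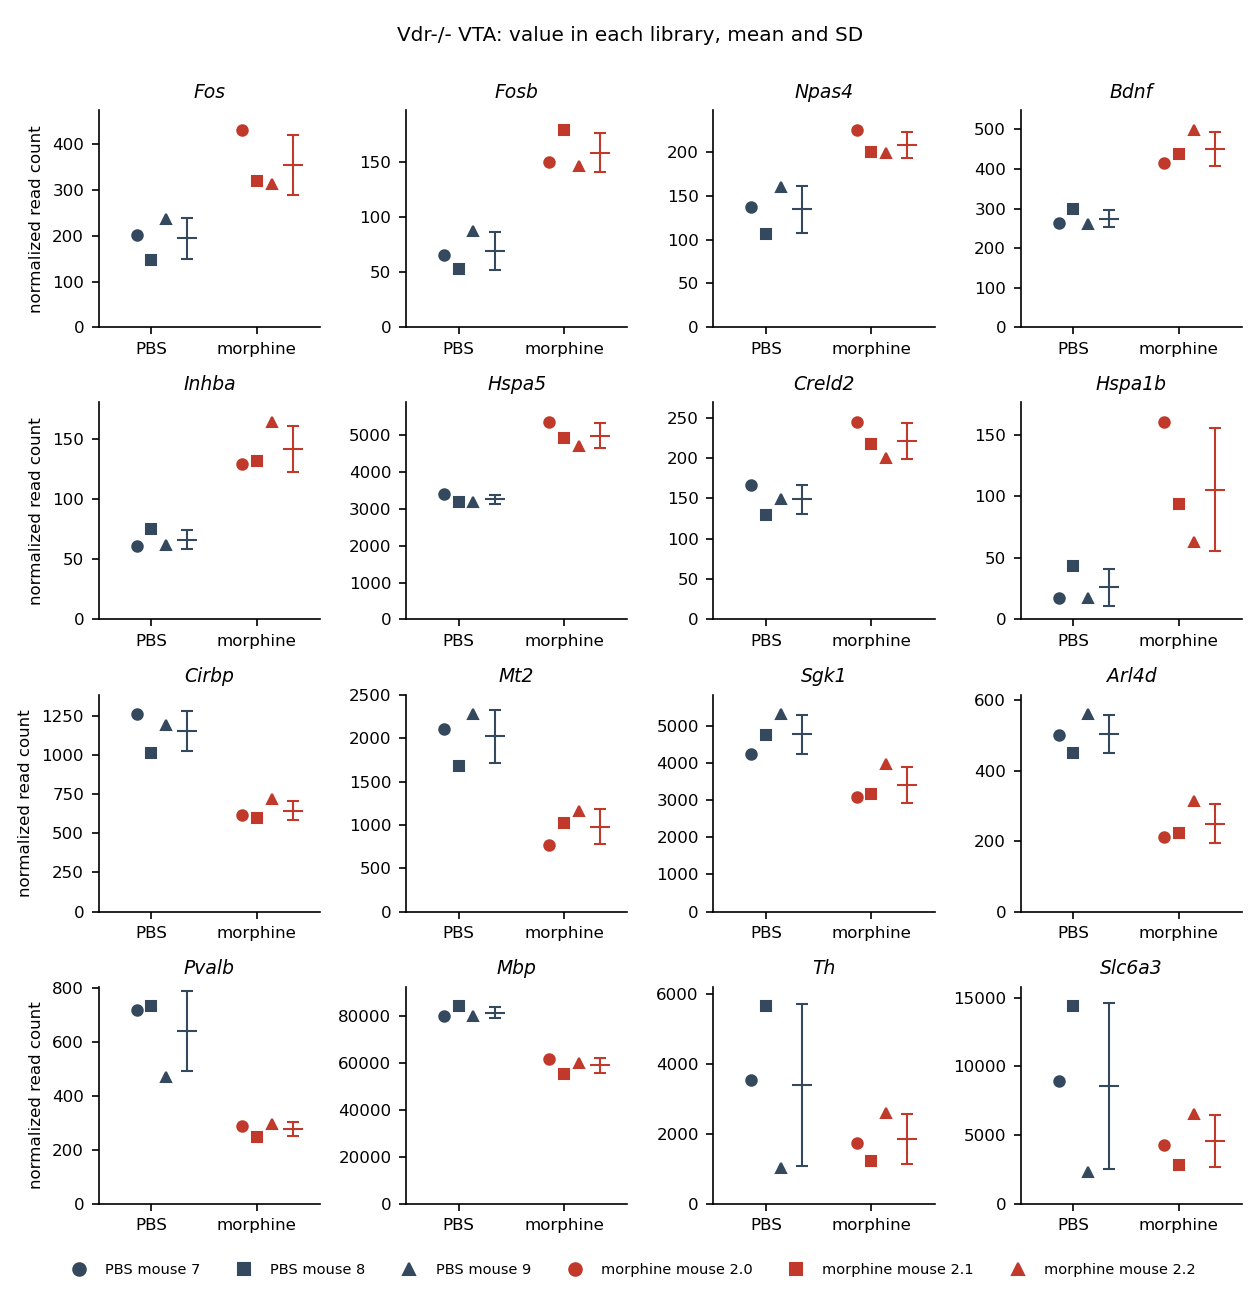
Normalized reads (y axis, linear from 0) of 16 genes in each Vdr-/- VTA library, PBS in dark blue and morphine in red, with the marker shape giving the mouse and the bar giving mean and SD (n = 3). Morphine and PBS libraries do not overlap in the 14 panels of called genes, which holds for every called gene. They overlap in Th and Slc6a3, where PBS mouse 9 lies below or among the morphine libraries.

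More than 1 in 2 genes of the endoplasmic reticulum chaperone list rose. Chaperones fold secreted and membrane proteins, and their genes are induced together when unfolded protein accumulates. The list also holds genes of that response that are not chaperones, such as Xbp1. Of 23 tested, 13 rose and 0 fell, with a median of 0.27, and 17 had a positive change. Hspa5, which encodes BiP, the central chaperone and sensor of that compartment, had 5346, 4907 and 4697 normalized reads after morphine and 3396, 3181 and 3185 after PBS, 1.53-fold higher (0.61 ± 0.06, limma adjusted p = 0.0116). Sdf2l1, a BiP cofactor, had 132, 114 and 96.8 against 73.6, 54.6 and 48.5 (0.95 ± 0.19, limma adjusted p = 0.0305). The lowest morphine library was above the highest PBS library for both. Creld2 rose by 0.57, and the disulfide isomerases Pdia4 and Pdia6 rose by 0.51 and 0.40. Manf, a secreted factor that protects dopamine neurons, rose by 0.45, Hsp90b1 by 0.40, Dnajc3 by 0.31 and Calr, the calcium-binding chaperone calreticulin, by 0.28. Xbp1, the transcription factor of the unfolded protein response, rose by 0.40. With PBS mouse 8 left out 13 rose, with PBS mouse 9 left out 9, and with morphine mouse 2.0 or 2.2 left out 7 and 6.

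Promoters of these chaperones are known for the endoplasmic reticulum stress element, in which CCAAT and CCACG are separated by 9 bases. In RefSeq windows of 250 bases before the annotated start (GRCm38.p6, both strands), 6 of the 10 called members with a window held it (Hspa5, Hsp90b1, Calr, Pdia6, Dnajc3 and Creld2) and 8 of the 21 listed members, against 35 of 27025 genes, or 0.130%. The motif was searched after the values were known, and a match is a description of the letters only. The 3 windows of called members that overlap no annotated exon are shown for 120 bases in the direction of transcription, with the element in capitals, on chr8:84847025-84847144 (minus strand) for Calr, chr14:118937776-118937895 (plus strand) for Dnajc3 and chr15:88819469-88819588 (plus strand) for Creld2.
Calr: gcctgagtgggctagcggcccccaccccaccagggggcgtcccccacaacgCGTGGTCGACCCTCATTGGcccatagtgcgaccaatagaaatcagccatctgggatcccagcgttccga
Dnajc3: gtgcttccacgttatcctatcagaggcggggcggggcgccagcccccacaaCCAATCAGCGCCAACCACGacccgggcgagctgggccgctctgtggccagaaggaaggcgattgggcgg
Creld2: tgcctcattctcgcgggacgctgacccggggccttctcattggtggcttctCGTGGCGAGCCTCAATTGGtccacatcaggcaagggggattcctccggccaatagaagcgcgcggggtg
The full cAMP response element, TGACGTCA, lay in the windows of 2 of the 7 called activity-regulated effectors (Scg2 and Pcsk1) and 5 of the 20 listed, and of 0 of the 3 called factors and 2 of the 22 listed, against 1.77% of all genes. The AP-1 element, TGANTCA, lay in 1 of the 7 called effectors (Bdnf) and 0 of the 3 called factors, against 7.82% of all genes, and the CArG box lay in none of them, against 1.62%. The heat-shock element lay in 0 of the 9 called heat-shock and cold-inducible genes with a window and in 2 of the 15 listed (Hspe1 and Hspd1), against 0.514%.

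Heat-shock genes and the cold-inducible RNA-binding proteins moved in opposite directions. Of 21 tested, 8 rose and 2 fell, with a median of 0.15. Hspa1b, an inducible cytosolic chaperone of the Hsp70 family, had 160.1, 93.6 and 62.6 normalized reads after morphine and 17.4, 43.4 and 17.1 after PBS (2.01 ± 0.44, limma adjusted p = 0.0371). Its neighbour Hspa1a rose by 1.23, and since 67.0% of the 25-base words of Hspa1a also occur in other genes, mostly in Hspa1b, the split of reads between the pair is uncertain. The other members that rose were Hspb1 (0.92), Dnajb1 (0.62), Hsph1 (0.59), Chordc1 (0.49), Dnaja1 (0.26) and Stip1 (0.26), all chaperones or their cofactors. Cirbp, an RNA-binding protein induced by mild cooling, had 619, 599.8 and 717 against 1259.6, 1010.0 and 1192, a 1.79-fold fall (-0.84 ± 0.10, limma adjusted p = 0.0122). Rbm3, the second cold-inducible member, had 660.2, 653 and 652 against 1038, 929 and 1012 (-0.60 ± 0.06, limma adjusted p = 0.0116). The morphine libraries of both genes lay well below the PBS libraries. With PBS mouse 8 left out 9 members rose, with morphine mouse 2.2 left out 4, and with PBS mouse 9 or morphine mouse 2.0 left out 3 each. Body temperature was not among the measurements used here.

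Glucocorticoid-induced genes fell where limma called them. Of 35 tested, 0 rose and 8 fell, with a median of -0.26, while DESeq2 called 1 rise and 11 falls. Mt2, a metal-binding metallothionein, had 764, 1021 and 1159 normalized reads after morphine and 2107, 1681 and 2277 after PBS (-1.05 ± 0.16, limma adjusted p = 0.0160), and Mt1 fell by 0.93. Arl4d, a small GTPase, had 212, 223 and 314 against 500.0, 450.4 and 559.6 (-1.03 ± 0.16, limma adjusted p = 0.0157). Every morphine library was below every PBS library for these genes. Nfkbia, the inhibitor of NF-kappa-B, fell by 0.62, Hif3a by 0.61, the arrestin-domain genes Arrdc2 and Arrdc3 by 0.60 and 0.56, and Sgk1, a kinase induced by corticosteroids, by 0.49. The full palindromic glucocorticoid response element, with AGAACA and TGTTCT 3 bases apart, lay in the windows of 1 of the 8 (Sgk1) and of 1 of the 30 listed, against 3 of 27025 genes. That window belongs to 1 of 6 annotated Sgk1 starts, on chr10:21993648-21993767 (GRCm38.p6, plus strand, no annotated exon), and is shown with the palindrome in capitals.
Sgk1: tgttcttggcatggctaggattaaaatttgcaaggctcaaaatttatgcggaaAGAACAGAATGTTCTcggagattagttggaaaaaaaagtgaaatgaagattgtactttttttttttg
With PBS mouse 8 left out 8 members fell, with morphine mouse 2.2 left out 5, and with PBS mouse 9 or morphine mouse 2.0 left out 4 each, the last with 1 rise.

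The genotype comparison asks whether these changes were those of wild-type mice given the same dose. The study's methods state the calcium- and lactose-rich diet for Vdr-/- mice and not for wild-type mice. Genotype and diet therefore cannot be told apart in this comparison. In wild-type VTA, 2001 of 16269 genes were called (12.3%, with 5.64% higher and 6.66% lower), and 31.0% had an unadjusted p under 0.05. The difference between the genotypes' responses, tested as an interaction in 12 libraries, passed the adjusted threshold for 0 of 16240 genes with limma (0.00%). At an unadjusted p under 0.05 it held 1739 genes, or 10.7%, edgeR called 0 and DESeq2 51. With limma and edgeR, no gene is therefore shown to respond differently by genotype. Of the 51 that DESeq2 called, 8 are genes that the rule names, and Nfkbia, Arl4d and Cirbp, given next, are among them. The 51 also include members of the dopamine neuron list, each with a positive difference. For the glucocorticoid-induced list the medians were -0.26 in Vdr-/- and 0.22 in wild-type VTA, where 5 rose and 0 fell, and 12 of its members had an unadjusted p under 0.05 for the difference. Nfkbia differed by -1.10 ± 0.21 (limma adjusted p = 0.283), with 0.48 ± 0.16 in wild type. Arl4d differed by -1.53 ± 0.32 (limma adjusted p = 0.283), with 0.51 ± 0.24 in wild type. Of the endoplasmic reticulum chaperone list, 13 had an unadjusted p under 0.05, against medians of 0.27 and 0.13 and 4 rises and 1 fall in wild type. Cirbp differed by -0.61 ± 0.13 (limma adjusted p = 0.283), with -0.23 ± 0.08 in wild type. Without PBS mouse 8 the interaction passed for 51 genes.

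**Figure D3:**
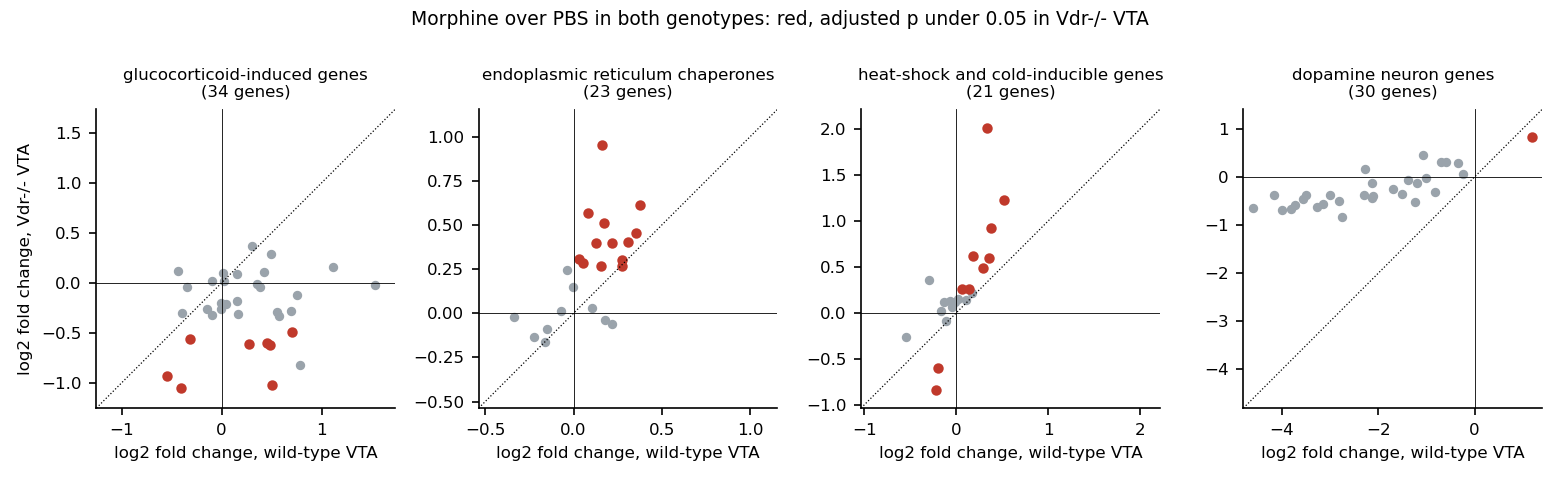
Log2 fold change of morphine over PBS in wild-type VTA (x axis) and Vdr-/- VTA (y axis) for the genes of 4 lists, in red where the adjusted p was under 0.05 in Vdr-/- VTA, with the dotted line marking equal change. Glucocorticoid-induced genes lie mostly below the line, chaperones mostly above it, and dopamine neuron genes far to the left of it.

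The opioid receptors and peptide precursors gave no call. Oprm1, the mu-opioid receptor through which morphine acts, had 223, 177 and 140.5 normalized reads after morphine and 149, 144 and 179.9 after PBS, and the groups overlapped (0.17 ± 0.18, limma adjusted p = 0.564). Of 7 members tested, 0 rose and 0 fell, with DESeq2 and edgeR also at 0. Pdyn, the dynorphin precursor, varied from 90.9 to 229 after morphine and from 29.4 to 136 after PBS (1.15 ± 0.58, limma adjusted p = 0.233). Of 40 genes of opioid receptor signalling, 5 rose and 0 fell, and the median was 0.04. Rgs9, which speeds the shut-off of Gi signals in striatal-type neurons, had 622, 663 and 689 against 424, 418 and 489 (0.57 ± 0.08, limma adjusted p = 0.0139). Creb1, the cAMP-responsive transcription factor, rose by 0.34, the adenylyl cyclase gene Adcy6 by 0.30, and the protein kinase A subunits Prkar2b and Prkacb by 0.27 and 0.21. This count of 5 was 1 with morphine mouse 2.2 left out, 2 with mouse 2.0 and 3 with no filter on low values.

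Dopamine neuron genes varied more among mice than between groups. Th had 1724, 1216 and 2611 normalized reads after morphine and 3531, 5649 and 1028 after PBS (-0.63 ± 0.58, limma adjusted p = 0.511). Slc6a3, the dopamine transporter, had 4276, 2797 and 6561 against 8940.1, 14368 and 2301 (-0.64 ± 0.63, limma adjusted p = 0.545). PBS mouse 9 was below all morphine libraries in both genes and PBS mouse 8 was the highest. Of 30 dopamine neuron genes, 1 rose and 0 fell, with a median of -0.37, which was 0.07 without PBS mouse 8. The member that rose was Calb1, a calcium-buffering protein of a VTA dopamine neuron subset that many other neurons also express, with 1655, 1618 and 1509 against 746, 947 and 1000.5 (0.84 ± 0.11, limma adjusted p = 0.0127). In wild-type VTA the same list had a median of -2.13, with 1 rise and 26 falls, and 26 of the 30 members had an unadjusted p under 0.05 for the genotype difference. After adjustment limma called 0 of them for that difference, while DESeq2 called some, each with a positive difference. Wild-type Th averaged 777 ± 412 (SD, n = 3) after morphine and 6922 ± 1040 after PBS. In such tissue fewer dopamine neurons in the punch and less RNA per neuron cannot be told apart. Drd1, the D1 dopamine receptor, was the only called member of 8 genes of dopamine breakdown and reception, with 101, 112 and 102 against 47.5, 61.6 and 62.8 (0.87 ± 0.15, limma adjusted p = 0.0215).

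Some genes of GABA neurons fell and some of glutamate transmission rose. Of 20 GABA neuron genes, 1 rose and 4 fell. Gad1, the main GABA-synthesizing enzyme, had 5193, 5498 and 4454 normalized reads after morphine and 7848, 8483 and 6003 after PBS (-0.55 ± 0.13, limma adjusted p = 0.0477), and Slc32a1, the vesicular GABA transporter, fell by 0.55. Pvalb, a calcium buffer of fast-firing neurons, had 287, 249.7 and 296 against 721, 733 and 469, a 2.26-fold fall (-1.18 ± 0.17, limma adjusted p = 0.0149). None of these groups overlapped. Nos1, neuronal nitric oxide synthase, rose by 0.53. With morphine mouse 2.2 left out no GABA neuron gene was called, and 2 fell with mouse 2.0 left out. Of 22 glutamate signalling genes, 3 rose and 0 fell: the presynaptic receptor gene Grm2 by 0.90, the NMDA receptor subunit gene Grin3a by 0.46 and Grm7 by 0.33. Of 21 neuropeptide genes, 1 rose (Adcyap1, the PACAP precursor, by 0.61) and 0 fell, while the median was 0.47 (DESeq2 called 3 rises). With limma that is near the 3.58% of all genes called upward. Peptides of the lateral hypothalamus differed among mice of the same group: Pmch ranged from 1054 to 2763 after morphine and from 54.6 to 4426 after PBS, with PBS mouse 8 at the bottom.

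**Figure D4:**
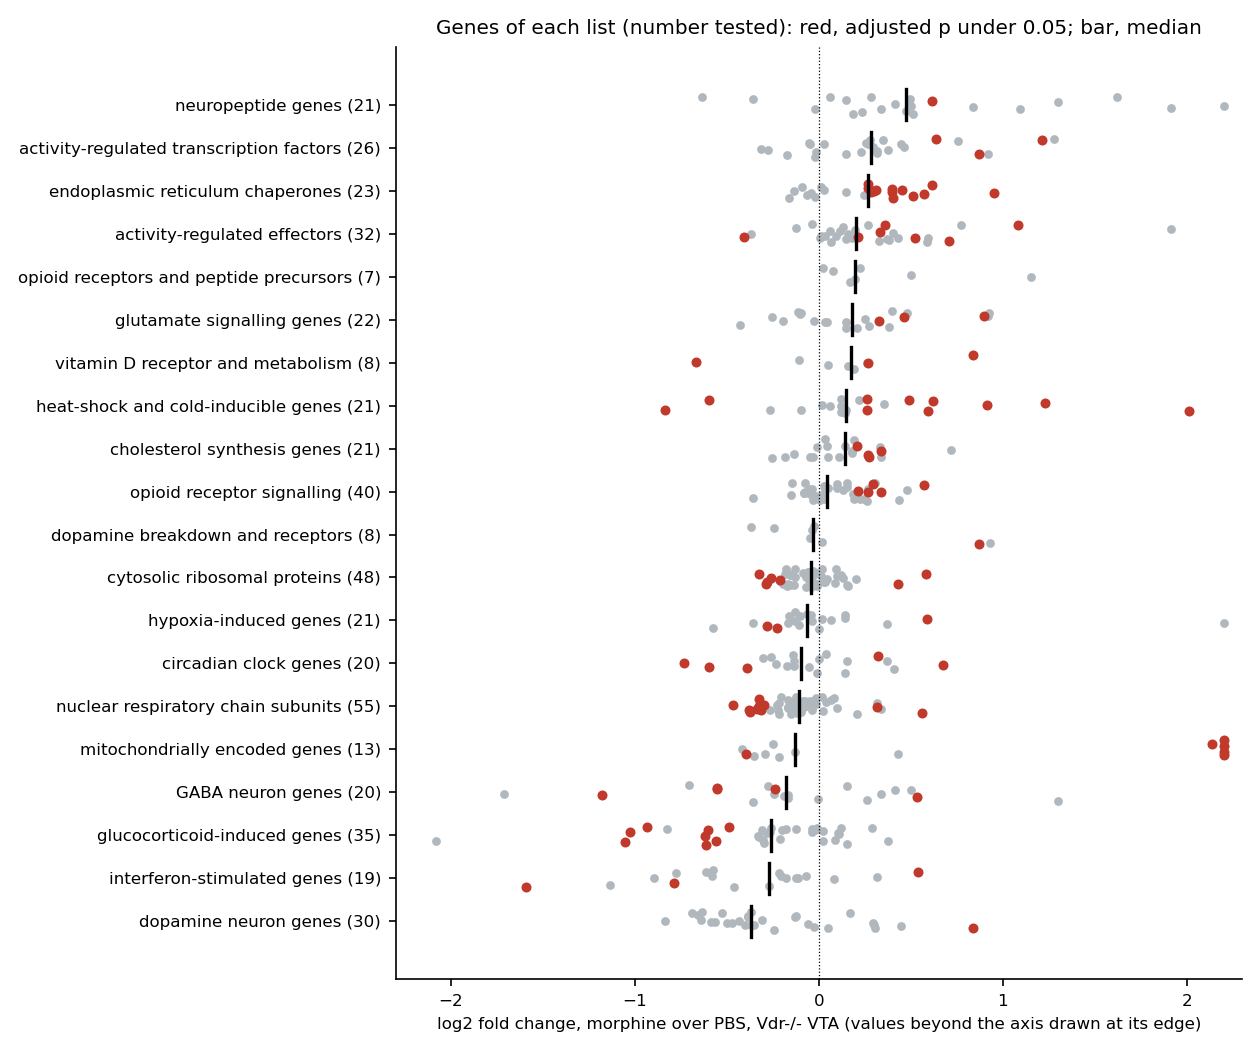
Log2 fold change of morphine over PBS in Vdr-/- VTA (x axis) for every tested gene of 20 lists (y axis, number tested in brackets), in red where the adjusted p was under 0.05, with a black bar at the median. Chaperone calls lie to the right of 0 and glucocorticoid-induced calls to the left.

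Markers of myelin and microglia were lower after morphine, while those of astrocytes and oligodendrocyte precursors were mixed. Of 10 myelin markers, 0 rose and 9 fell, with a median of -0.66. Mbp, a structural protein of myelin, had 61502, 55130.0 and 59772 normalized reads after morphine and 79934, 83876 and 79849.7 after PBS (-0.47 ± 0.07, limma adjusted p = 0.0157), and Opalin fell by 1.17. Summed over the list, the morphine libraries held 148387 to 166315 and the PBS libraries 221375 to 229879. Of 9 microglial markers, 5 fell and 0 rose, the purinergic receptor gene P2ry12 by 0.63 and the complement gene C1qa by 0.58, with sums of 4061 to 4596 against 5114 to 6941. Of 8 astrocyte markers, 0 rose and 2 fell, S100b by 0.79 and Aldoc by 0.40. Their median was -0.08, 4 of the 8 had a positive change, and the sums overlapped. Of 5 oligodendrocyte precursor markers, 1 rose and 2 fell, with a median of -0.06. Their sums were lower after morphine, at 5698 to 6382 against 6586 to 6971 after PBS. With morphine mouse 2.2 left out 3 myelin markers fell, and no microglial marker did with either mouse 2.2 or mouse 2.0 left out (DESeq2 with all libraries called 8). In wild-type VTA 7 of the myelin and 8 of the microglial markers fell. The part of these cell-type shifts in the other lists was not tested.

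Markers of neighbouring tissue also varied among the libraries. Markers of hypothalamic and mammillary nuclei summed to 1134 in PBS mouse 8 and to between 3082 and 6665 in the other libraries, and 2 of the 7 tested, Foxb1 and Nkx2-1, rose by 0.87 and 0.88. The PBS sums, 1134 to 6665, spanned the morphine sums of 3082 to 5338, and the median change of the list was 0.84 with all libraries and 0.11 with PBS mouse 8 left out. Choroid plexus markers summed to 2248 in morphine mouse 2.1 and to 158 to 365 elsewhere. In morphine mouse 2.1, 1636 of that sum was Ttr, the transthyretin made by choroid plexus, which was at 0 to 23.8 in the other libraries. Cortical excitatory markers ran from 156 in PBS mouse 7 to 3065 in morphine mouse 2.1, with Slc17a7 between 75.6 and 2628. Thalamus and habenula markers ran from 2947 in morphine mouse 2.2 to 8696 in PBS mouse 9. Dopamine neuron markers ran from 8072 to 36855 in the PBS group alone. Pituitary markers stayed between 5.60 and 17.7 in all 6 libraries. Of 7 medium spiny neuron markers tested, 2 rose, Drd1 and Rgs9 given above, and 0 fell. Their sums overlapped, at 2738 to 2924 after morphine and 2689 to 2858 after PBS. The part of punch position in the calls was not tested.

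**Figure D5:**
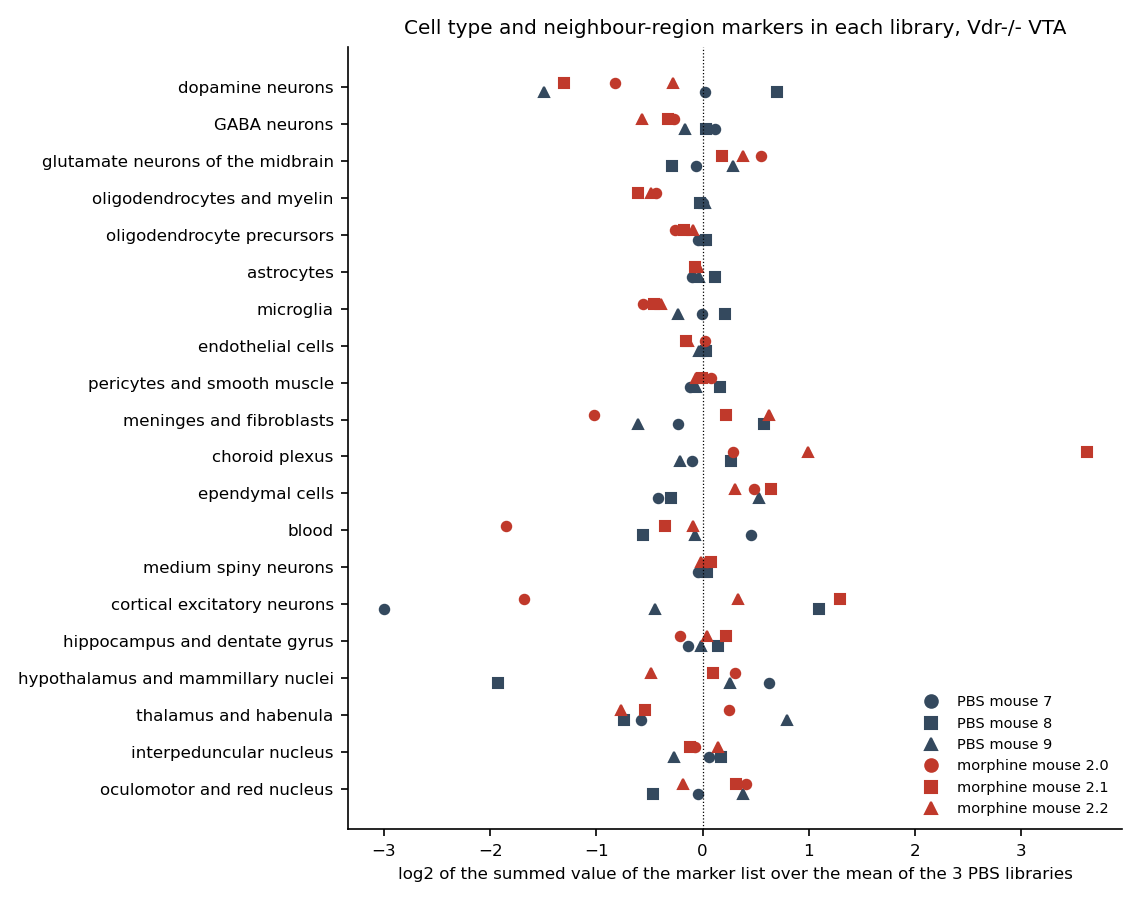
Summed normalized reads of each marker list in each Vdr-/- VTA library, as the log2 ratio to the mean of the 3 PBS libraries (x axis), with PBS in dark blue, morphine in red and the shape giving the mouse. Myelin, microglial, oligodendrocyte precursor and GABA neuron markers are lower in all 3 morphine libraries, and choroid plexus markers stand out in morphine mouse 2.1.

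Genes of the circadian clock split by member. Of 20 tested, 2 rose and 3 fell. Ciart, a repressor of the clock, had 174, 222 and 221 normalized reads after morphine and 317, 308 and 404 after PBS (-0.73 ± 0.14, limma adjusted p = 0.0263). Dbp, a clock-driven transcription factor, fell by 0.59 and Per3 by 0.39, while Nfil3, which opposes Dbp at shared sites, rose by 0.67 and Nr1d1, a nuclear receptor of the clock, by 0.32. The labels give no hour of day. Of 21 cholesterol synthesis genes, 4 rose and 0 fell, Cyp51 by 0.34, Sqle and Msmo1 by 0.27 each and Sc5d by 0.21. That count was 0 with morphine mouse 2.0 or 2.2 left out, 1 with PBS mouse 9 left out and 2 with no filter on low values. Of 21 hypoxia-induced genes, P4ha1, a collagen prolyl hydroxylase, rose by 0.59, and the glycolytic genes Eno1 and Pgk1 fell by 0.28 and 0.23. Among 8 tested genes of vitamin D signalling, Cyp27a1, a sterol and vitamin D hydroxylase, fell by 0.67. The 2 that rose, Calb1 and Pdia3, are counted above in other lists. Of 19 interferon-stimulated genes, 1 rose (Irf9, by 0.54) and 2 fell. Ifit3 had 24.1, 28.3 and 35.4 against 110.5, 75.5 and 84.5 (-1.59 ± 0.21, limma adjusted p = 0.0135), and Oasl2 fell by 0.78. Ifit3b, not on the list, fell by 1.50, and 66.1% of the 25-base words of Ifit3 also occur elsewhere, in Ifit3b.

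The largest rises were in short noncoding and mitochondrial transcripts. Rny3 and Rny1 encode Y RNAs, small noncoding RNAs bound by the Ro60 protein, and their GENCODE M21 transcripts of 102 and 112 bases are shown because they head the comparison.
Rny3: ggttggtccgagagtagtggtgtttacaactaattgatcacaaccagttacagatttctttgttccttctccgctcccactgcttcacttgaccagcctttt
Rny1: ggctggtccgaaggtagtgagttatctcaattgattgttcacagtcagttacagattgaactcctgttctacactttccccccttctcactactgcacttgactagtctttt
Rny3 had 38.4, 314 and 297 normalized reads after morphine and 0, 1.40 and 0 after PBS. From 609 reads against 1, the ratio was 765 with an exact 95% counting interval of 137 to 30272, and the fitted change of 6.85 depends on the pseudocount. Rny1 had 21.9, 208 and 251 against 1.94, 1.40 and 1.14, a ratio of 112 (47.7 to 347) from 446 reads against 5. Both were also higher after morphine in wild-type VTA, by 6.64 and 5.34, and in the Vdr-/- accumbens, by 5.73 and 4.63. Of the 88 words of 25 bases in Rny1, 37 also occur in other genes (Gm26168 and Gm26124), and 0 of those in Rny3. Intervals cover counting error only. Of 7 small nuclear RNA genes tested, 4 rose, with a median log2 change of 2.93, and both mitochondrial ribosomal RNA genes rose. Reads on ribosomal RNA genes, nuclear and mitochondrial together, were 1.07 to 1.28% of the reads on genes after morphine and 0.756 to 0.964% after PBS. These shares did not overlap, and they include the reads of the mitochondrial ribosomal RNA genes that rose. The part of library composition in the rises was not tested.

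Among 13 genes encoded by the mitochondrial genome, 5 rose and 1 fell, whereas edgeR called 5 and 4 and DESeq2 called 4 and 6. mt-Co2, a cytochrome c oxidase subunit, had 71.3, 255 and 297 normalized reads after morphine and 20.3, 18.2 and 18.3 after PBS (3.15 ± 0.49, limma adjusted p = 0.0157), and mt-Atp8, mt-Nd4l, mt-Co3 and mt-Atp6 rose by 3.55, 3.03, 2.56 and 2.14. Of the 25-base words of mt-Co2, 660 of 660 occur in other annotated genes too, as do 99.9% for mt-Co3, 99.5% for mt-Atp6 and 98.9% for mt-Nd4l, but 11.7% for mt-Atp8, most of them nuclear copies, so that the assignment of their reads is uncertain. The copies Gm10925, Gm28437 and Gm28439, named after their values were seen, rose by 3.87, 3.03 and 4.05. mt-Nd1, which shares 0 of its words, had 79698, 73755 and 80891 against 105582, 94961 and 107997 (-0.40 ± 0.08, limma adjusted p = 0.0334). The summed mitochondrial list was 664100 to 743319 after morphine and 833581 to 961330 after PBS. Of 55 nuclear respiratory chain subunits, 2 rose and 8 fell, with a median of -0.11. Cox4i1 had 3179, 3057 and 3106 against 4191, 4032 and 3912 (-0.38 ± 0.04, limma adjusted p = 0.0122), and Ndufb2 rose by 0.56. Of 48 cytosolic ribosomal protein genes, 2 rose (Rps28 by 0.58 and Rps29 by 0.43) and 5 fell (by 0.21 to 0.32). The rises in the respiratory and ribosomal lists were near the upward share of all genes, 3.58%, and the downward share was 4.09%. With morphine mouse 2.2 left out 2 of the respiratory and 0 of the ribosomal genes fell.

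Change also varied with transcript length. The 83 tested genes with at most 300 exonic bases had a median log2 change of 0.42, with 16 called upward and 0 downward. Genes of 1001 to 2000 bases had a median of -0.06, with 33 upward and 94 downward, and those above 8000 bases 0.06, with 168 upward and 65 downward. In wild-type VTA the medians of the same 3 bins were 0.31, -0.07 and 0.05. The part of length in the list results was not tested.

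Of the further genes with large changes, all but Clic6, a listed choroid plexus marker, belonged to none of the lists. Mir6236, an annotated microRNA locus, had 4867, 9405 and 9909 normalized reads after morphine and 2735, 2367 and 1617 after PBS (1.81 ± 0.29, limma adjusted p = 0.0174). Rrad, a small GTPase that inhibits calcium channels, rose by 1.40, Clic6, a chloride channel family member of choroid plexus, by 1.26 and Prokr2, a prokineticin receptor, by 1.24. Clic6 was highest in morphine mouse 2.1, the library with the choroid plexus signal, at 254 against 137 and 164. Among the falls, Fmo2, a flavin monooxygenase, had 68.0, 90.7 and 88.5 against 359, 228 and 354, 3.73-fold lower (-1.90 ± 0.20, limma adjusted p = 0.0122). Sgk2 fell by 1.26, the linker histone gene Hist1h1c by 1.17, the troponin gene Tnni1 by 1.14, the potassium channel gene Kcng4 by 1.11 and the peptidase gene Pm20d1 by 1.04. For these genes as for every called one, no PBS library reached the range of the morphine libraries.

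The region comparison asks whether VTA and nucleus accumbens of Vdr-/- mice responded alike. The labels give the libraries of the regions the same mouse numbers without saying that a number marks 1 animal. With the number as a block, the difference of the responses passed for 210 of 16123 genes (1.30%), with 103 more positive (0.639%) and 107 more negative (0.664%) in the VTA, and 18.0% had an unadjusted p under 0.05. The test called 345 genes without the block. Drd1 rose in the VTA while its accumbens change was -0.54, a difference of 1.41 ± 0.14 (limma adjusted p = 0.0119). Rgs9 differed by 1.11 ± 0.09 (limma adjusted p = 0.0119), with -0.54 in the accumbens, and Calb1 by 0.97 ± 0.09 (limma adjusted p = 0.0119), with -0.13. Kcng4 differed by -1.81 ± 0.23 (limma adjusted p = 0.0218), with 0.70 in the accumbens, and Arl4d by -0.92 ± 0.11 (limma adjusted p = 0.0218), with -0.11. Hspa5, Cirbp, Fos and Bdnf were not among the 210, with accumbens changes of 0.70, -0.84, 1.10 and 1.24. The region count was 0 with the libraries numbered 2.1 or 2.2 left out, 16 to 30 with 2.0, 7 or 9 left out, and 730 with 8 left out.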

How the data were processed

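The authors trimmed reads with Trimmomatic 0.36, aligned and counted them per gene with STAR 2.4.2a on GRCm38, and deposited tables of counts divided by DESeq2 size factors. These deposited signal values were whole multiples of 1 read per library (within 0.01) in 100% of cases, which gave back the reads. The deposited table with this contrast holds 5 of the 6 libraries, and PBS mouse 8 was taken from another table. The 6 libraries were rescaled together (DESeq2 1.42.0 size factors), filtered at a mean of 10, tested on log2(value + 1) with limma 3.58.1 (trend) and Benjamini-Hochberg adjustment at 0.05. Since no label says how the mice were caged or processed, p-values measure the spread between these libraries. Same-numbered libraries of the regions were the block of the region test, although the labels do not say that they share an animal and deviations from group means hardly correlated within numbers (-0.01 to 0.11 over 6 numbers). DESeq2 and edgeR 4.0.16 were run on recovered reads as alternatives. The steps were tested on simulated data. Genes named were the 12 largest called changes each way with a mean of at least 50 and groups that do not overlap (predicted models left out), called list members, and up to 4 per list. Members and lists were chosen with earlier results of these data known. Replicate libraries differed by more than counting noise (chi-square per degree of freedom 4.57 to 14.2). Some genes that the rule names are not reported here.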

Additional observations from a re-analysis of the deposited data

Results flagged for a closer look

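The response to morphine differed between the VTA and the nucleus accumbens of Vdr-/- mice for 210 genes by the test of the difference itself, and the following values are that difference (VTA change minus accumbens change, log2, limma adjusted p under 0.05). Of genes named in the report, it was 1.41 for Drd1, 1.11 for Rgs9, 0.97 for Calb1, 0.48 for Grm7, 0.40 for Nr1d1, -0.43 for Aldoc, -0.58 for Mt2, -0.92 for Arl4d, -0.92 for Cyp27a1 and -1.81 for Kcng4. The oligodendrocyte lineage factor gene Olig1 differed by -0.59. Among the most positive differences with a mean of at least 50 were Gm19410 (2.10), Gpr83 (1.63), Rprm (1.49), Gpr6 (1.29), Nxph4 (1.28), Dclk3 (1.19) and Ryr1 (1.19), all with a negative change in the accumbens. Among the most negative were Sncg (-2.38), Ret (-2.11), Zic4 (-1.91), A2m (-1.82), Otx2 (-1.60) and Esrrb (-1.60), all with a positive change in the accumbens. Of genes singled out after their values were seen, it was 0.99 for Crhbp and -0.46 for Sox10. Without the mouse number as a block, Sncg, Nxph4, Mt2, Cyp27a1, Crhbp and Sox10 no longer passed. Groups of 3 were too small for a test of single outlying libraries.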

How the results depend on the processing

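With no variance trend in limma, 1 gene was called in Vdr-/- VTA, 796 in wild-type VTA and 0 for the region difference. DESeq2 called 51 genes for the genotype difference. Leaving out 1 library at a time gave 0 to 1639 genes in Vdr-/- VTA (139 to 524 without morphine mouse 2.2 or 2.0, with 344 higher and 249 lower without PBS mouse 9), 405 to 3737 in wild-type VTA (419 to 638 without 1 PBS mouse), 0 to 51 for the genotype difference and 0 to 730 for the region difference (16 and 21 without number 7 or 2.0). No paired analysis was possible for the morphine comparison because its groups share no mouse numbers, and the region difference without the replicate block called 345 genes. Of 6 mouse numbers, 2 had a correlation of deviations over 0.1 and 3 VTA libraries correlated best with the accumbens library of their own number, so that the libraries may share only a number. TMM scaling moved its split to 84 more positive and 135 more negative. The normalizations, pseudocounts and filters left the other counts over whole comparisons within 1.5 times. Among the lists, having no filter on low values gave 3 rises in opioid receptor signalling, 2 in cholesterol synthesis and 2 mitochondrial falls, and a mean of at least 50 gave 4 rises in respiratory chain subunits and 2 mitochondrial falls. No list had a call without the variance trend. DESeq2 gave 8 microglial falls and 3 neuropeptide rises, and the joint fit of 12 VTA libraries 4 myelin falls, 5 glucocorticoid-induced falls and 0 hypothalamic rises. Of 185 named genes, 146 were called, and 0 of these changed direction under 17 alternatives. Since the groups of every called gene did not overlap, that was nearly fixed in advance and is no support for the calls. Drd2, not called, turned to 0.16 in the deposited table of 5 libraries and without PBS mouse 8 (lowest -0.72, without PBS mouse 9), and Slc17a7, not called, to -0.46 without PBS mouse 7 (highest 1.99, without PBS mouse 8). The cause was not tested. With 3 libraries a group, the smallest p of an exact permutation test of a single gene would be 0.1, so all calls rest on spread shared across genes.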

Other observations

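The following genes were singled out after their values were seen. They form no list with a fixed number of members, and no statement about a group is made from them. The sodium channel subunit gene Scn4b had 1776, 1081 and 1352 normalized reads after morphine and 2923, 2559.9 and 2635 after PBS (-0.97 ± 0.16, limma adjusted p = 0.0184). The potassium channel gene Kcna1 fell by 0.61, the neurofilament genes Nefh and Nefm by 0.61 and 0.58, the synaptotagmin gene Syt2 by 0.78, the complexin gene Cplx1 by 0.74 and the transcription factor gene Sox10 by 0.57. Peg10, an imprinted retrotransposon-derived gene, had 6412, 5707 and 4774 against 3046, 2051 and 3319 (1.02 ± 0.18, limma adjusted p = 0.0227). Igsf1 rose by 0.95, the insulin receptor substrate gene Irs4 by 0.90, the orphan receptor gene Gpr101 by 0.89 and Crhbp, which binds corticotropin-releasing hormone, by 1.12. Slc5a3, the myo-inositol transporter induced by osmotic stress, had 1685, 1709.8 and 1499 against 894, 1039 and 926 (0.77 ± 0.08, limma adjusted p = 0.0116), and its change was 0.28 ± 0.10 in wild-type VTA (limma adjusted p = 0.110) and 0.85 in the Vdr-/- accumbens. The morphine and PBS libraries did not overlap for these genes in Vdr-/- VTA, and leaving out morphine mouse 2.1 or PBS mouse 7 ended every one of these calls.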
